A study of Mus musculus with 6 samples.

Results

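Progression through G1 in tumors driven by Myc was examined through 10 genes: the D-type cyclins Ccnd1, Ccnd2 and Ccnd3, the E-type cyclins Ccne1 and Ccne2, the kinases Cdk4 and Cdk6, the kinase inhibitors Cdkn1b and Cdkn2c, and the retinoblastoma gene Rb1. They were chosen by gene symbol from the 38293 genes measured, and each symbol matched 1 gene. RNA came from the bulk cell suspensions of 6 tumors of C57BL6 mice, all of which carried the Eμ-Myc transgene. Eμ-Myc places Myc under an immunoglobulin heavy chain enhancer, so that it is driven in B-lineage cells. The 2 miR-146a-deficient tumors (miR-146a-/-) were thymic tumors of mice labelled female, aged 11 weeks for replicate 1 and 10 weeks for replicate 2. The 4 miR-146a-sufficient tumors (miR-146a+/+) came from mice labelled male, so by the labels genotype and sex cannot be told apart. Replicates 1 and 2 were neck node tumors at 18 and 16 weeks, and replicates 3 and 4 were thymic tumors, both at 10 weeks. miR-146a is a microRNA that dampens NF-κB signaling, and the series asked how its loss changes Myc-driven B-cell tumors. Each tumor is 1 mouse, each library was run as technical duplicates merged by the authors into 1 value, and no tumor without the transgene was measured.

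D-type cyclins bind Cdk4 and Cdk6 in early G1, and E-type cyclins bind Cdk2 later in G1. Both sets of kinases phosphorylate the Rb protein, which releases the E2F factors that switch on genes for DNA synthesis. Inhibitors of the INK4 family, such as the product of Cdkn2c, bind Cdk4 and Cdk6, while the product of Cdkn1b, p27, acts mainly on Cdk2 complexes. B-lineage cells commonly use cyclin D2 and cyclin D3, and cyclin D1 is best known there for its activation by translocation in human mantle cell lymphoma.

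Sequences are shown for the deleted microRNA and for the motif that Myc binds, since these are what the genotypes of the mice alter. The mature microRNA lies at chr11:43374435-43374456 on the minus strand, and its seed, bases 2 to 8, is in capitals. Of the 10 genes, Ccnd2 alone had a match to that seed in its longest annotated 3′UTR, in capitals in the second line. It starts at base 1868 of that 3′UTR of 5173 bases, within chr6:127128453-127128475 on the minus strand, and 1 of 3 Ccnd2 transcripts with a 3′UTR holds it. Across all 21010 genes with an annotated 3′UTR, 18.1% had such a match of 7 bases, counting both the form shown and the form that ends in an A. The microRNA is from RefSeq (GRCm38.p6) and the 3′UTR from GENCODE M21 (GRCm38).
mmu-miR-146a-5p: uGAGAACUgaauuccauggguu
Ccnd2 3′UTR: gagagacgAGTTCTCtgtactgg

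Myc and its partner Max bind the E-box CACGTG, which reads the same on both strands. RefSeq promoters (GRCm38.p6, 250 bases before to 50 after the start) were matched for 6 of the 10 genes, with 8 starts between them. Ccnd1, Ccnd2, Ccne2 and Rb1 had no entry. Cdk4 held 4 E-boxes in 1 promoter, shown in capitals in its first 3 lines, at -172, -118, -98 and -11 from the start. At least 1 E-box was present in 7.15% of the 32851 promoters in the table, and 4 or more in 8 promoters, or 0.0244%. Cdk6 held 1 E-box at -220 and Cdkn2c held 1 at 35 bases into the transcript of 1 of its 2 starts. These are matches of letters, and binding was not measured. The E2F letters TTTCCCGC, TTTCGCGC, TTTGCCGC and TTTGGCGC, read on both strands, were in none of the 8 promoters and in 2.26% of all promoters.
Cdk4 chr10:127063353-127063378, plus strand: ggcagccagtCACGTGccacacagcg
Cdk4 chr10:127063416-127063443, plus strand: tCACGTGggatagcaacaggtCACGTGg
Cdk4 chr10:127063514-127063539, plus strand: gggtgaagatCACGTGtccagaacgt
Cdk6 chr5:3343663-3343688, plus strand: tctgcggcccCACGTGggtgaacccc
Cdkn2c chr4:109665323-109665348, minus strand: gctgaataatCACGTGtgaatcgagg

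Levels are the RPKM values deposited by the authors, in which reads are divided by gene length and by depth. The gene lengths used are not given, and rankings of genes by level depend on them. No counts were given, so the depth of the libraries is unknown and no counting error can be attached. The sum over all genes was 1932930 and 714062 for the deficient tumors, and each sufficient tumor lay between 675516 and 788919. In deficient replicate 1 the gene Xist, which is transcribed from the inactive X chromosome, was listed at 1240070, the larger part of the sum of that tumor. Xist was listed at 1819 in deficient replicate 2 and at 1585 to 2203 in the sufficient tumors labelled male. The label of deficient replicate 2 as female is in doubt, because the Y-linked gene Ddx3y stood at 24.6 RPKM there, with 0.130 in deficient replicate 1 and a range of 17.9 to 23.0 over the sufficient tumors. Mir146 was listed at 0 in all 6 tumors and could not check the genotype. All 6 were rich in B-cell RNA: the summed level of 7 markers reached 2231 and 1351 RPKM in the deficient tumors, against 1326 to 2019 in the sufficient ones. Summed levels of 8 T-cell markers were 14.4 and 18.1 RPKM in deficient tumors and 24.8 to 67.4 in sufficient tumors. Those of 9 macrophage markers were 84.4 and 122 RPKM in deficient tumors and 25.7 to 62.6 in sufficient tumors. The T-cell and macrophage sums thus lay apart between the genotypes, but not every marker in them did. Cd3e and Cd4 were lower in sufficient replicate 4 than in both deficient tumors. Csf1r was highest in sufficient replicate 1, and Emr1 was higher in sufficient replicate 4 than in deficient replicate 1. The part of T cells and macrophages in the differences below was not tested. Summed levels of 5 thymic epithelial markers were 0.998 and 2.32 RPKM in the deficient tumors, 0.129 and 0.314 in the neck node tumors and 0.867 and 0.906 in the thymic sufficient tumors. Krt8 gave most of that sum in deficient replicate 2, while the defining markers Foxn1 and Psmb11 were at or near 0 in all 6 tumors. The marker sums of 4 salivary genes were 64.7 and 65.9 RPKM in the neck node tumors and at most 1.13 in every thymic tumor.

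Tests used limma on log2(RPKM + 1) with Benjamini-Hochberg adjustment over the 12751 genes at 0.5 RPKM or more in at least 2 tumors, a filter that all 10 genes passed. Fold changes are deficient minus sufficient on that log2 scale, which understates changes of low genes. SE is the standard error of the fold change. The median fold change of all tested genes was 0.13, and -0.01 once tumors were scaled by median ratios, so values are to be read against that shift. In the thymic tumors alone it was 0.19, and -0.01 scaled. With 2 tumors against 4, an exact two-sided permutation test cannot give a p below 0.133. P-values measure the spread between these tumors. The RNA is from whole suspensions, in which fewer cells of a type and less RNA per cell cannot be told apart.

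None of the 10 genes passed the adjusted threshold of 0.05 in limma between the genotypes, where 0.0627% of all tested genes did (8 genes). At an unadjusted limma p under 0.05 there was 1, Ccne2, against 3.62% of all tested genes. Limma without the trend also called 0 of the 10. Fold changes were positive for 6 and negative for 4, with a median of 0.12, next to 67.6% positive over all genes. After median-ratio scaling 4 were positive, with a median of -0.04, next to 48.0% of all genes. The groups did not overlap for Rb1, above in both deficient tumors (as 9.15% of all genes were) before but not after median-ratio scaling, and for Ccne2, below in both (as 2.09% were).

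**Figure D1:**
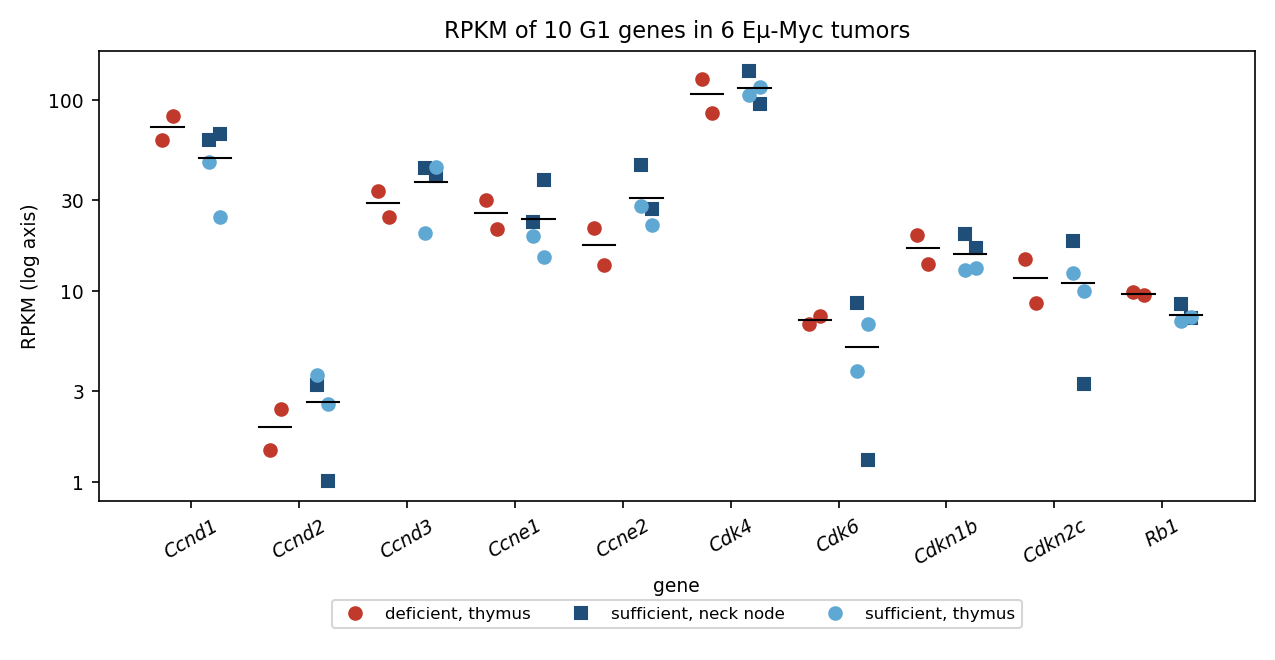
RPKM of the 10 genes in each tumor on a log axis. Red circles are the 2 deficient thymic tumors, dark squares the 2 sufficient neck node tumors and light circles the 2 sufficient thymic tumors, and black lines are group means. Cdk4 stands near 100 RPKM in every tumor and Ccnd2 at or below 3.65, and the groups are apart for Ccne2 and Rb1 and for no other gene, though for Rb1 they overlap after median-ratio scaling.

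Ccnd1, cyclin D1 (chr7:144929931-144939925), was the most abundant D-type cyclin in 5 of the 6 tumors. It stood at 62.3 and 82.5 RPKM in the deficient tumors, against 62.2 and 66.3 in the neck node and 47.6 and 24.4 in the thymic sufficient tumors. Deficient replicate 2 was the highest, sufficient replicate 4 the lowest, and the genotypes overlapped through the neck node tumors. The means were 72.4 ± 14.2 RPKM in deficient tumors (SD, n = 2) and 50.2 ± 18.9 in sufficient tumors (SD, n = 4). The fold change was 0.60 with an SE of 0.38 and a 95% interval of -0.28 to 1.48, and it missed the threshold (limma, adjusted p = 0.893). It was 0.43 after median-ratio scaling, 0.30 without sufficient replicate 4, and 0.40 without deficient replicate 2, the tumor whose sex label is in doubt.

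Ccnd2, cyclin D2 (chr6:127125162-127152193), was the least abundant of the 10 genes in every tumor. It stood at 1.47 and 2.43 RPKM in the deficient tumors, against 3.23 and 1.02 in the neck node and 3.65 and 2.58 in the thymic sufficient tumors. Sufficient replicate 2 was the lowest of all and lay below both deficient tumors, so the groups overlapped. The fold change of this gene, the one with the seed match shown above, was -0.24 with an SE of 0.36 (limma, adjusted p = 0.909). It became -0.50 without sufficient replicate 2. The 95% interval over all 6 tumors, -1.08 to 0.59, holds changes in either direction.

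Ccnd3, cyclin D3 (chr17:47505051-47599691), is the D-type cyclin that germinal center B cells and B-cell precursors depend on in mice. Its level was 33.4 and 24.6 RPKM in the deficient tumors, against 44.3 and 40.1 in the neck node and 20.2 and 44.7 in the thymic sufficient tumors. The deficient tumors lay between sufficient replicate 3, the lowest, and the other three. Its fold change of -0.31, with an SE of 0.34, missed the threshold (limma, adjusted p = 0.893). It moved with single tumors, from -0.57 without sufficient replicate 3 to -0.09 without deficient replicate 2, and was -0.07 among thymic tumors. The pseudogene Ccnd3-ps, which could share reads with it, was at 0.111 to 0.270 RPKM in all 6 tumors.

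RPKM is per kilobase, so the 3 cyclins can be set against each other within a tumor, though the shares depend on the gene lengths used, which are not given. Ccnd1 made up 64.2% and 75.3% of summed D-type cyclin RPKM in the deficient tumors, against 56.7% and 61.7% in the neck node and 66.6% and 34.1% in the thymic sufficient tumors. Sufficient replicate 4 was the one tumor in which Ccnd3 led, with a ratio of Ccnd1 to Ccnd3 of 0.548, while the other five had ratios between 1.41 and 3.36. The Ccnd1 share differed by 14.95 percentage points between the genotypes (exact two-sided permutation p = 0.267), but by 8.06 points without sufficient replicate 4 and 9.37 without deficient replicate 2. The Ccnd3 share was 34.3% and 22.5% in deficient tumors and 28.3% to 62.3% in sufficient tumors, and Ccnd2 never exceeded 5.10%. The sum of the 3 was 97.2 and 109.5 RPKM in deficient tumors, and it was 109.7 and 107 in the neck node and 71.4 and 71.7 in the thymic sufficient tumors. Both thymic sufficient tumors were thus the lowest in summed D-type cyclin, replicate 3 with little Ccnd3 and replicate 4 with little Ccnd1.

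**Figure D2:**
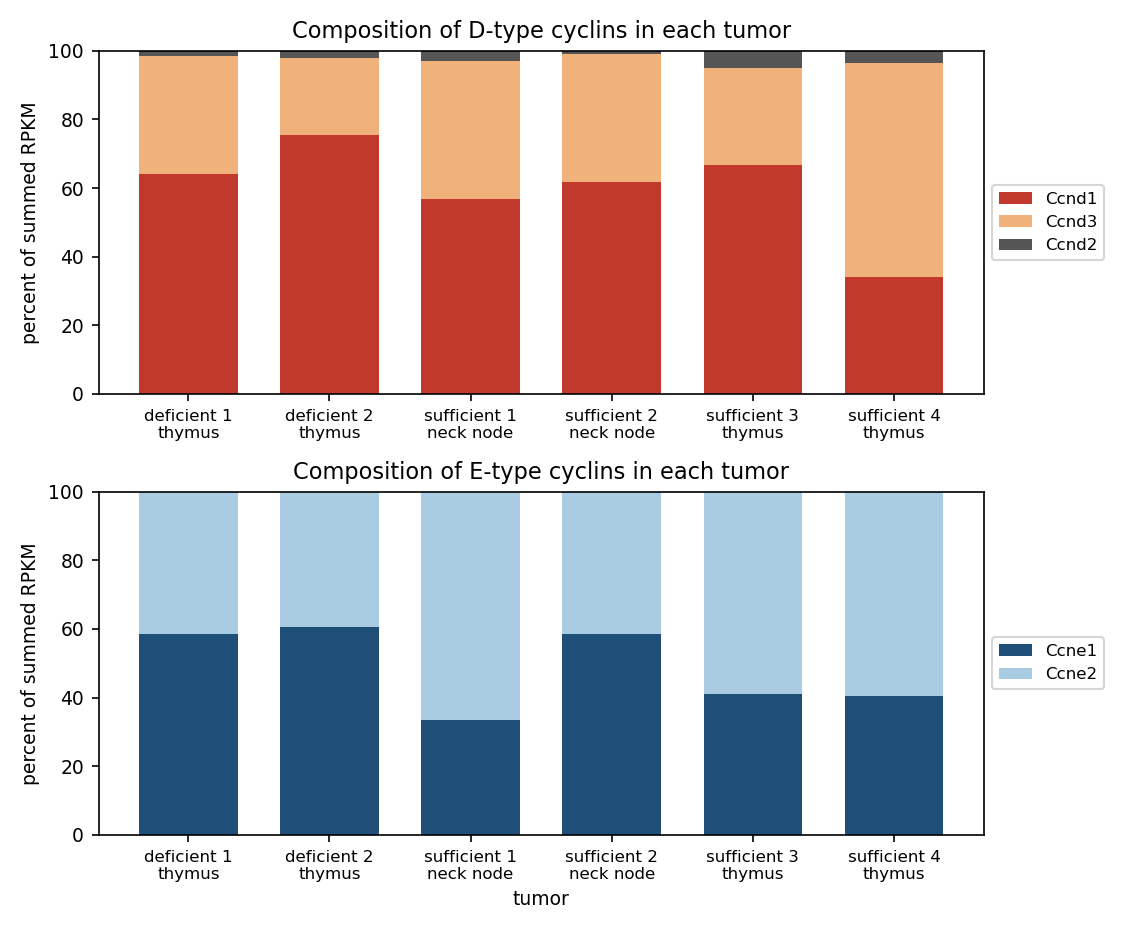
Share of summed RPKM, in percent, held by each D-type cyclin (upper panel) and each E-type cyclin (lower panel) in each tumor. Ccnd1 is the largest D-type share in every tumor except sufficient replicate 4 (34.1%), and Ccne1 is over 58% of E-type RPKM in both deficient tumors and in sufficient replicate 2.

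Ccne2, cyclin E2 (chr4:11191351-11204779), was lower in both deficient tumors than in all 4 sufficient tumors. It stood at 21.4 and 13.8 RPKM in the deficient tumors, against 45.9 and 26.97 in the neck node and 27.95 and 22.2 in the thymic sufficient tumors. The gap between the groups was narrow, with deficient replicate 1 just under sufficient replicate 4. The means were 17.6 ± 5.37 RPKM in deficient tumors (SD, n = 2) and 30.7 ± 10.4 in sufficient tumors (SD, n = 4). The fold change was -0.75 with an SE of 0.31 and a 95% interval of -1.47 to -0.04, and it did not pass over all genes (limma, adjusted p = 0.893). By unadjusted p it was gene 374 of the 12751. The exact two-sided permutation p was 0.133, the smallest this design can give. The groups stayed apart after median-ratio scaling, where 4.37% of all genes were lower in both deficient tumors, with a fold change of -0.92. It was -0.45 without deficient replicate 2 and -1.05 without deficient replicate 1, so the size rests on which deficient tumor is kept.

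Ccne1, cyclin E1 (chr7:38097984-38107534), did not share that pattern. It stood at 30.1 and 21.2 RPKM in the deficient tumors, against 23.0 and 38.2 in the neck node and 19.4 and 15.1 in the thymic sufficient tumors. The neck node tumor of sufficient replicate 2 was the highest of all 6. Between the genotypes the fold change was 0.16 with an SE of 0.35 (limma, adjusted p = 0.936), and -0.01 after median-ratio scaling. Ccne1 made up 58.5% and 60.6% of E-type RPKM in the deficient tumors, against 33.4% and 58.6% in the neck node and 41.0% and 40.6% in the thymic sufficient tumors. Sufficient replicate 2 thus lay between the deficient tumors and the others were lower. The difference was 16.2 percentage points (exact two-sided permutation p = 0.267), and the share of Ccne1 was higher in deficient tumors whichever tumor was left out (12.8 to 21.2 points).

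Cdk4 (chr10:127063534-127067920), a kinase of the D-type cyclins, was the most abundant of the 10 genes in every tumor by RNA. It is the gene with 4 E-boxes in its promoter. It stood at 129.8 and 86.3 RPKM in the deficient tumors, against 142 and 95.9 in the neck node and 106 and 118 in the thymic sufficient tumors. Deficient replicate 2 was the lowest of all 6 and deficient replicate 1 the second highest. With so wide a pair, the fold change was -0.11 with an SE of 0.25 and a 95% interval of -0.68 to 0.46 (limma, adjusted p = 0.937). Myc itself was at 451 and 909 RPKM in the deficient tumors, against 237 to 516 in the sufficient ones.

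Cdk6 (chr5:3341485-3531008), the second kinase of the D-type cyclins, varied most of the 10 genes, by 6.59-fold between the highest and lowest tumor. It stood at 6.70 and 7.39 RPKM in the deficient tumors, against 8.66 and 1.31 in the neck node and 3.84 and 6.71 in the thymic sufficient tumors. The low end was sufficient replicate 2 alone. Over all 6 tumors the fold change was 0.58 with an SE of 0.52 (limma, adjusted p = 0.893), and it was 0.18 without that tumor. Cdk6 made up 4.91% and 7.89% of the RPKM of both kinases in deficient tumors and 1.35% to 5.74% in sufficient tumors (exact two-sided permutation p = 0.40). The difference of 2.41 percentage points was 0.923 without deficient replicate 2, 1.53 without sufficient replicate 2 and 3.90 without deficient replicate 1. Cdk4 was thus over 90% of the sum in every tumor.

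Cdkn1b, which encodes the inhibitor p27 (chr6:134920401-134925513), varied little. It stood at 19.7 and 13.9 RPKM in the deficient tumors, against 20.0 and 16.8 in the neck node and 12.9 and 13.3 in the thymic sufficient tumors. The deficient tumors fell inside the range of the sufficient ones. The fold change was 0.09 with an SE of 0.26 and a 95% interval of -0.50 to 0.67 (limma, adjusted p = 0.954), and -0.08 after median-ratio scaling.

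Cdkn2c, which encodes the INK4 inhibitor p18 (chr4:109660876-109667189), was as uneven as Cdk6. It stood at 14.7 and 8.69 RPKM in the deficient tumors, against 18.3 and 3.28 in the neck node and 12.5 and 10.0 in the thymic sufficient tumors. Sufficient replicates 1 and 2, both neck node tumors, were the highest and the lowest of all 6. Over all 6 tumors the fold change was 0.23 with an SE of 0.54 (limma, adjusted p = 0.938), and -0.20 without sufficient replicate 2. The spread of log2 values among the 4 sufficient tumors was at percentile 97.1 of all tested genes for Cdkn2c and 96.8 for Cdk6.

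Rb1 (chr14:73183673-73325822), the brake on which the kinases act, was the steadiest of the 10 genes, 1.41-fold from the highest to the lowest tumor. It stood at 9.88 and 9.52 RPKM in the deficient tumors, against 8.55 and 7.23 in the neck node and 7.01 and 7.31 in the thymic sufficient tumors. Both deficient tumors were higher than all 4 sufficient tumors. The means were 9.70 ± 0.254 RPKM in deficient tumors (SD, n = 2) and 7.52 ± 0.693 in sufficient tumors (SD, n = 4). The fold change was 0.33 with an SE of 0.21 and a 95% interval of -0.15 to 0.81, and it missed the threshold (limma, adjusted p = 0.893). The exact two-sided permutation p was 0.133, the smallest possible. After median-ratio scaling the fold change was 0.17 and the groups overlapped: scaled values were 9.64 and 8.19 in deficient tumors and 6.98 to 8.54 in sufficient tumors. In the scaled data 4.87% of all genes were higher in both deficient tumors.

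**Figure D3:**
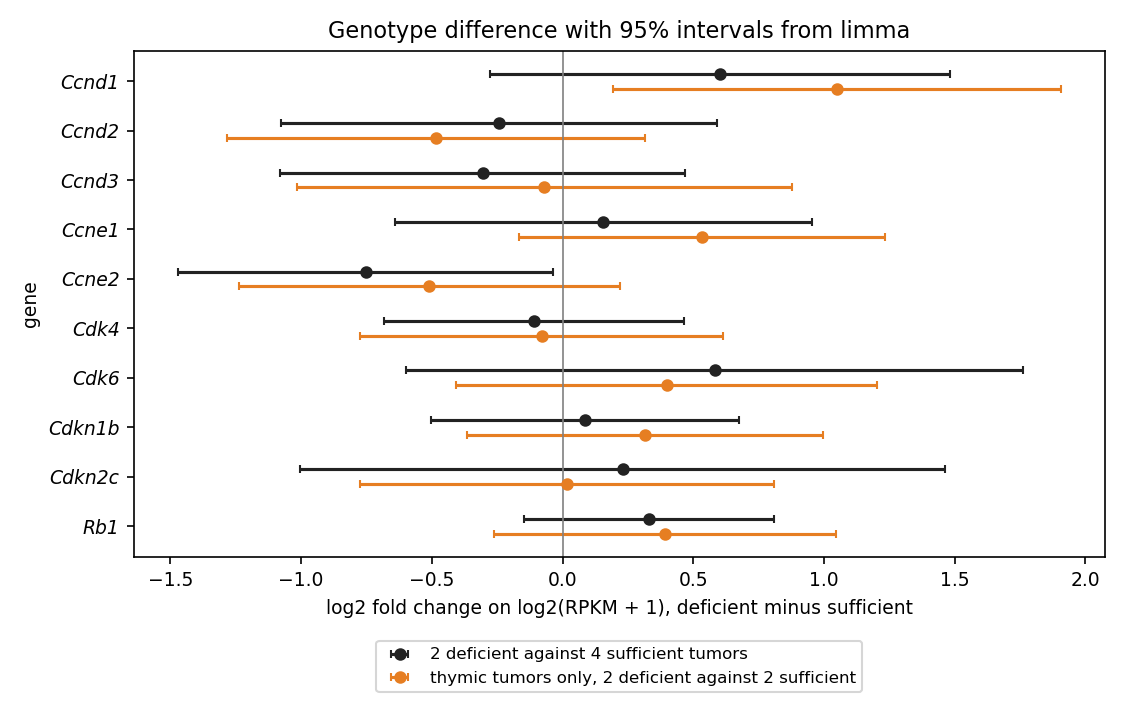
Log2 fold change of each gene, deficient minus sufficient, with 95% intervals from limma. Black is 2 deficient against 4 sufficient tumors and orange the thymic tumors alone, 2 against 2. Unadjusted intervals leave 0 only for Ccne2 over all tumors (-1.47 to -0.04) and for Ccnd1 in the thymic tumors (0.19 to 1.91).

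Among the thymic tumors alone, site and age are close to matched, while labelled sex still differs with genotype. Ccnd1 stood furthest apart in this comparison. Its fold change there was 1.05 with an SE of 0.36 and a 95% interval of 0.19 to 1.91, and it did not pass the threshold (limma, adjusted p = 0.662). Of the 10 genes, 0 passed the adjusted threshold in that fit, as did 0.0244% of the 12286 genes tested, and 1, Ccnd1, had an unadjusted limma p under 0.05, as did 7.28% of all. In both deficient tumors Ccnd1, Ccne1, Cdkn1b and Rb1 were higher than in both thymic sufficient tumors, and 32.5% of all genes were. Ccnd2 and Ccne2 were lower in both deficient tumors, and 10.5% of all genes were. After median-ratio scaling Ccnd1 stayed higher in both, next to 18.4% of all genes. The scaled gap was narrow, with 60.8 in deficient replicate 1 against 57.9 in sufficient replicate 3, while sufficient replicate 4 was far lower at 23.9. Ccnd2 and Ccne2 stayed lower after scaling, next to 20.6% of all genes, while Ccne1, Cdkn1b and Rb1 overlapped. In this fit Ccne2 had a fold change of -0.51 and Ccnd2 of -0.48.

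Tumor site was compared within the 4 sufficient tumors, where neck node tumors were also from older mice, so site and age cannot be told apart. The same 2 thymic sufficient tumors are the reference here and in the thymic comparison above. None of the 10 genes passed the adjusted threshold in limma, as did 0.155% of the 12255 genes tested, and Ccnd1 and Ccne1 had an unadjusted limma p under 0.05, as did 7.87% of all. Fold changes, neck node minus thymus, were positive for 7 of the 10 with a median of 0.29, next to 61.0% positive and a median of 0.10 over all genes, or -0.01 after median-ratio scaling. Scaled, 5 of the 10 were positive, with a median of 0.16. Ccnd1, Ccne1 and Cdkn1b were higher in both neck node tumors than in both thymic ones, and none of the 10 was lower in both. Over all genes 27.9% were higher in both and 12.6% lower in both.

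Ccnd1 averaged 64.3 RPKM in the neck node tumors and 36.0 in the thymic tumors, a fold change of 0.89 with an SE of 0.34 (limma, adjusted p = 0.618). It was 0.43 without sufficient replicate 4 and 1.36 without sufficient replicate 3. Ccne1 averaged 30.6 RPKM in the neck node tumors and 17.3 in the thymic tumors, a fold change of 0.76 with an SE of 0.31 (limma, adjusted p = 0.628), and 0.40 without sufficient replicate 2. After median-ratio scaling Ccnd1 and Cdkn1b stayed higher in both neck node tumors (19.5% of all genes), Ccne1 overlapped, and again none was lower (20.2% of all genes). The site differences of Cdk6 and Cdkn2c, -0.37 and -0.42, turned on sufficient replicate 2 and were both 0.66 without it. Neutrophil markers moved with site as well, with summed levels of 7 genes of 1586 and 1615 RPKM in the neck nodes against 232 and 200.1 in the thymic sufficient tumors, beside the salivary genes above. Their part in the differences of the cyclins was not tested.

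The rest of the G1 pathway was read from a list of 46 genes, of which 45 passed the filter. Between the genotypes 0 of the 45 passed the adjusted threshold in limma and 1, E2f6, had an unadjusted limma p under 0.05, next to 0.0627% and 3.62% of all genes. Fold changes were positive for 29 and negative for 16, with a median of 0.11, close to that of all genes. After median-ratio scaling 18 were positive, with a median of -0.06. Higher in both deficient tumors were 4 genes, E2f4, E2f6, Lin52 and Lin54, a share near the 9.15% of all genes. Lower in both was none, next to 2.09%. Scaled, 4 of the 45 were higher and 1 lower in both deficient tumors, next to 4.87% and 4.37% of all genes. The 15 E2F target genes had a median of 0.09 between the genotypes, with 9 positive, and of -0.08 with 3 positive after scaling.

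Against the thymic sufficient tumors alone, the deficient tumors had a positive fold change for 34 of the 45 genes, with a median of 0.34, next to 68.9% and 0.19 over all genes. In both deficient tumors 24 were higher and 2 lower, next to 32.5% and 10.5% of all genes. After median-ratio scaling 27 were positive, with a median of 0.11, next to 49.1% positive over all genes. Scaled, 15 were higher and 6 lower in both deficient tumors, next to 18.4% and 20.6% of all genes. The E2F targets had a median of 0.38 with 12 of 15 positive, and of 0.13 with 9 positive after scaling. Mki67, a marker of cycling cells, was at 185 and 313 RPKM in the deficient tumors, against 134 and 94.2 in the thymic sufficient tumors (fold change 1.10, limma, adjusted p = 0.662). It was at 192 and 188 RPKM in the neck node tumors, so the genotypes overlapped over all 6 tumors.

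Between the sites, a comparison that rests on the same 2 thymic sufficient tumors, 37 of the 45 genes had a positive fold change, with a median of 0.41, next to 61.0% and 0.10 over all genes. In both neck node tumors 28 were higher and 4 lower, next to 27.9% and 12.6% of all genes. After median-ratio scaling 33 were positive, with a median of 0.28, and 21 were higher and 6 lower in both, next to 19.5% and 20.2% of all genes. Limma called 0 of them after adjustment (0.155% of all genes), and 13 had an unadjusted limma p under 0.05 (7.87% of all genes). The 15 E2F targets had a median of 0.56 with 14 positive, and the 8 E2F factors a median of 0.55 with 7 positive. After scaling the E2F targets had a median of 0.42 with 14 positive and the E2F factors 0.44 with 7 positive. Cdc6, which loads the replicative helicase, had the largest site difference of the E2F targets, with 23.2 and 23.4 RPKM in the neck node tumors and 9.74 and 10.2 in the thymic ones (fold change 1.15, limma, adjusted p = 0.316). It was at 15.6 and 14.5 RPKM in the deficient tumors, between the sites. Cdc6 was picked for its size after the values were seen.

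**Figure D4:**
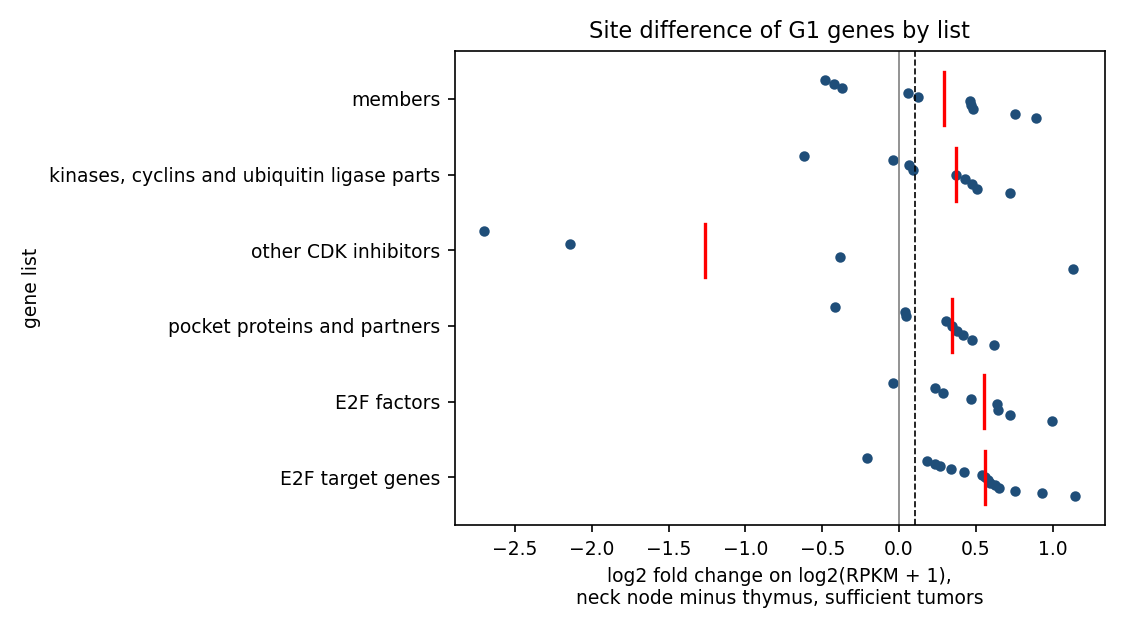
Log2 fold change, neck node minus thymus, among the 4 sufficient tumors, for the 10 genes and for 5 lists of other G1 genes. Each point is a gene, the red line is the median of its list and the dashed line the median of all genes tested (0.10). The medians of the E2F factors (0.55) and of the E2F target genes (0.56) lie right of the dashed line.

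Among the other inhibitors of cyclin-dependent kinases, Cdkn2a and Cdkn1c had wider ranges over the tumors than any of the 10 genes. Cdkn2a, which encodes the INK4 protein p16 and Arf, was at 4.89 and 0.067 RPKM in the deficient tumors, against 2.44 and 2.96 in the neck node and 0.476 and 179.9 in the thymic sufficient tumors. Sufficient replicate 4, with its single high value, was also the one with the least Ccnd1 and with Ccnd3 as its main D-type cyclin. That is 1 tumor, and a link between these levels was not tested. Cdkn1c, which encodes p57, was at 6.96 and 1.65 RPKM in the deficient tumors, against 0.059 and 5.22 in the neck node and 19.3 and 12.7 in the thymic sufficient tumors. Cdkn1a, which encodes p21, was at 2.58 and 2.28 RPKM in the deficient tumors, against 2.60 and 3.08 in the neck node and 0.548 and 0.976 in the thymic sufficient tumors. Cdkn1a and Cdkn1c thus lay on opposite sides between the sites of the sufficient tumors, with fold changes of 1.13 and -2.70. Neither passed the threshold (limma, adjusted p = 0.524 for Cdkn1a and 0.577 for Cdkn1c). The deficient tumors, thymic as well, had more Cdkn1a and less Cdkn1c than the same 2 thymic sufficient tumors. Because that reference is shared, the site and genotype comparisons are not independent. Over all genes 32.5% were higher and 10.5% lower in both deficient tumors than in both thymic sufficient ones. The fold changes among thymic tumors were 0.97 for Cdkn1a and -1.86 for Cdkn1c. Neither passed the threshold there (limma, adjusted p = 0.662 for both). Cdkn2d, which encodes the INK4 protein p19, was at 24.1 and 7.89 RPKM in deficient tumors and 16.4 to 23.0 in sufficient tumors. Cdkn2b was at most 0.499 RPKM in any tumor and was not tested.

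Ordered by mean level in the deficient tumors, the 10 genes ran Cdk4, Ccnd1, Ccnd3, Ccne1, Ccne2, Cdkn1b, Cdkn2c, Rb1, Cdk6 and Ccnd2. In the sufficient tumors they ran Cdk4, Ccnd1, Ccnd3, Ccne2, Ccne1, Cdkn1b, Cdkn2c, Rb1, Cdk6 and Ccnd2, so that only the E-type cyclins changed places. Neighbours in the middle of the order overlapped in the deficient tumors, where Ccne2 at 13.8 to 21.4 RPKM overlapped both Ccne1 at 21.2 to 30.1 and Cdkn1b at 13.9 to 19.7. In the sufficient tumors Ccne2 at 22.2 to 45.9 RPKM overlapped Ccne1 at 15.1 to 38.2, which overlapped Cdkn1b at 12.9 to 20.0. Cdk4 was above Ccnd1 in every tumor, and Ccnd2 was below Cdk6 in every tumor.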

How the data were processed

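RNA from 6 Eμ-Myc tumors was sequenced as single-end reads. Per the labels, the authors aligned reads to GRCm38 (mm10) with STAR 2.3.0, counted them per Ensembl gene with HTSeq 0.5.4p3, tested counts with DESeq (1.12.1 in the labels, another version in the study's methods) and deposited 1 RPKM value per gene and tumor, with technical duplicates merged. How RPKM was made from the counts is not given in the sources used here, and depth could not be recovered from the values. No counting interval is therefore given, and the spread between tumors is the measure of precision.

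Groups, sites and ages are from the sample labels. The 10 genes, the gene lists and the tests were chosen with earlier results of these data known. RPKM was tested with limma 3.58.1 in R 4.3.3, with trend, on log2(RPKM + 1), for genes at 0.5 RPKM or more in at least 2 tumors of a comparison. Adjusted p-values are Benjamini-Hochberg over all genes tested, with a threshold of 0.05. For single values and shares, exact two-sided permutation tests ran through the 15 ways to assign the tumors. A group was called above or below another when their values did not overlap. The script was tested on simulated data.

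All 10 genes are named with every value. Of the 46 other G1 genes, those past the threshold, those with genotype groups apart and a log2 fold change of at least 1 in size, and the kinase inhibitors were to be named. Mki67 meets this among the thymic tumors only. E2f4, E2f6, Lin52, Lin54 and Cdc6 are named outside this rule, after their values were seen. Locations and 3′UTRs are from GENCODE M21 on the authors' assembly, promoters and the microRNA from RefSeq (GRCm38.p6).

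Alternatives changed the filter, the pseudocount (0.1 and 5), scaling between tumors, the trend, the tumors kept, tumor site as a covariate and a replicate block.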

Additional observations from a re-analysis of the deposited data

Results flagged for a closer look

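Cdkn2a had 4.89 and 0.067 RPKM in the deficient tumors. Among the 4 sufficient tumors it stood at 180 RPKM in replicate 4, far from the other 3, which lay between 0.476 and 2.96. The gap to the nearest tumor was 0.986 of their whole range. The 4 sufficient tumors were examined in this way for 20 levels and shares and 1 stood out, and chance marks about 1 in 20 such groups.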

How the results depend on the processing

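None of the 10 genes was called between genotypes or sites under any alternative run. Between genotypes, 8 genes of the whole table were called, against 23 with no filter on low values, 3 among thymic tumors, 3 once tumor site was a covariate and 1 with the replicate block. With 1 tumor left out it was 4 to 9, with 4 without sufficient replicate 3 and 5 without either deficient tumor. Between sites 19 were called, against 0 with no filter and 11 to 67 with 1 tumor left out, with 32, 67 and 11 without sufficient replicates 1, 2 and 4. The cause was not tested. The sign of some fold changes turned. Median-ratio scaling gave -0.012 for Ccne1 and -0.078 for Cdkn1b between genotypes, and -0.081 for Cdk4 and -0.0068 for Rb1 between sites. The replicate block gave -0.22 for Ccne1 and -0.14 for Cdkn1b. The numbers are those of the sample titles, and the block sets the deficient tumors against the neck node ones. Deviations of same-numbered tumors correlated at 0.02 and 0.21 over genes. Crossed pairs gave -0.21 and -0.02, a mirror that having 2 deficient tumors forces, so these values do not decide whether tumors were paired. With 1 tumor left out, genotype fold changes ran from -0.088 to 0.40 for Ccne1, -0.15 to 0.33 for Cdkn1b, -0.20 to 0.58 for Cdkn2c and -0.40 to 0.18 for Cdk4. Site fold changes ran from -0.22 to 0.34 for Cdk4, -1.02 to 0.052 for Ccnd2, -1.40 to 0.66 for Cdk6, -1.51 to 0.66 for Cdkn2c and -0.081 to 1.02 for Ccnd3. Between genotypes the other 6 genes kept their sign under all alternatives run. With 2 deficient tumors, leaving 1 out leaves a lone tumor, which limma takes to vary like the sufficient ones. Depth is unknown, so it sets no limit that can be given.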
